A study of Mus musculus with 5 samples.

Results

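The 10 genes described here encode receptor chains for cytokines that are known for restraining lymphocytes: Ifngr1 and Ifngr2 for interferon-gamma, Ifnar1 and Ifnar2 for type I interferons, Il27ra and Il6st for IL-27, Tgfbr1 and Tgfbr2 for TGF-beta, and Il10ra and Il10rb for IL-10. They were chosen by name. Each is represented by 1 probe set that the platform annotation pairs with that symbol alone, so all 10 are among the 22180 genes that could be named, and all 10 passed the filter that left out the 25% of genes with the lowest mean. The values come from group 2 innate lymphoid cells (ILC2s), tissue lymphocytes that respond to the alarmin IL-33, isolated from lungs of naive adult male mice. The wild-type group holds 3 arrays and the IL-33 knockout group 2 arrays, each labelled as a biological replicate. Both groups were naive, and the labels name no treatment, strain or exact age. They do not say which part of Il33 was removed or whether cells of several mice were pooled. Signals are log2 probe-set values, in which a difference of 1 is a 2-fold difference.

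Cytokine receptors of this kind work as pairs of unlike chains. Interferon receptors, the IL-27 receptor and the IL-10 receptor have no kinase of their own and signal through bound Janus kinases (JAK1, JAK2 or TYK2) to STAT transcription factors. TGF-beta receptors are kinases themselves and phosphorylate SMAD proteins. Interferons and IL-27 are known to curb the growth and type 2 cytokine production of ILC2s, whereas TGF-beta and IL-10 have more varied effects on these cells.

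Array medians lay between 4.29 and 4.33 on all 5 arrays. The ILC2 transcripts Gata3, at 7.89 to 8.50, and Il7r, at 11.26 to 11.45, were well above the median gene (4.48) on every array. Of 12 ILC2 markers tested, 0 were called, 3 were above and 9 below 0 in difference, and the median was -0.14. Without overlap of the groups, 3 were higher, among them Icos (1.27), and 1 was lower, Ptprc (-0.40, or -0.22 on knockout replicate 1 alone). Over all genes tested, 18% did not overlap in either direction and 11.6% did so upward. Klrg1 differed by -0.56 with overlap (-0.19 on knockout replicate 1 alone). Il33 itself, a gene of epithelial and stromal cells, read 3.32 to 3.39 in wild type and 3.79 and 3.95 in knockout, below that median, and does not check the genotype labels. Probe sets for Il1rl1, which encodes the IL-33 receptor, were not analysed here. Knockout replicate 2 differed from its label as a male sample at the X-inactivation transcript Xist, which read 7.91 there and 2.35 to 3.10 on the other 4 arrays. Its Y-linked transcripts were not uniformly low: Kdm5d read 4.79 against 5.57 to 5.63, Eif2s3y 6.14 against 6.82 to 7.62, Uty 7.17 against 5.83 to 6.96, and Usp9y, a dim probe set, 2.63 against 2.25 to 2.86. For the receptor chains, differences that moved by over 1.5 times or turned without that array are also given without it. For genes of their pathways and for cell type markers, the value of knockout replicate 1 alone, against the wild-type mean, is added where it differs that much. The labels do not say whether the replicates came from separate animals, so p-values measure the spread between these samples.

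No receptor chain passed the test, and neither did any other gene. With limma (lmFit and eBayes, Benjamini-Hochberg adjustment over 16635 genes, threshold 0.05) 0 of 10 chains were called, where 0% of all genes were called. The lowest adjusted p among the 10 was 0.528. Ifngr1 and Ifngr2, 2 of the 10, had an unadjusted p below 0.05, both higher in knockout, where 7.64% of genes had such a p in either direction and 5.05% upward. The groups did not overlap for 4 chains, all 4 higher in knockout, where 18% of all genes tested did not overlap in either direction and 11.6% did so upward. Those 4 were the interferon receptor chains, and the groups overlapped or touched for the other 6. With knockout replicate 1 as the only knockout array, 8 chains and 47.8% of all genes did not overlap, and with replicate 2 alone 7 chains and 54% did not. Groups that do not overlap with all arrays cannot overlap with fewer, so this says nothing about the 4 chains. Fits with a single knockout array called 2.34% of genes without replicate 2 and 6.44% without replicate 1, among them 0 and 1 of the chains. The median log2 difference, knockout minus wild type, was 0.24 for the 10 chains and 0.0385 for all genes tested. Of the chains, 7 were above 0 in difference, where 57.1% of all genes were. In a bulk sample, fewer cells of a type and less RNA per cell cannot be told apart.

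**Figure D1:**
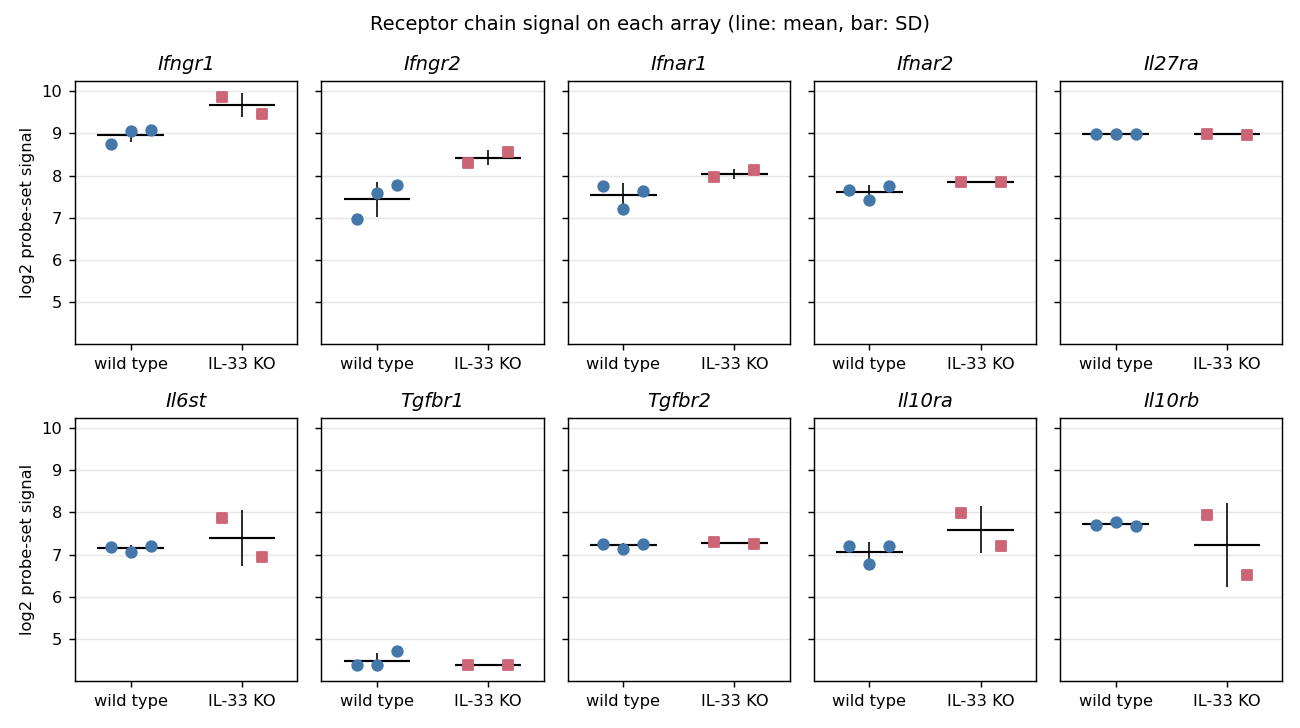
Log2 probe-set signal of each receptor chain on the 3 wild-type arrays (blue circles) and the 2 IL-33 knockout arrays (red squares), with the group mean as a line and the SD as a bar. Both knockout arrays lie above all 3 wild-type arrays for Ifngr1, Ifngr2, Ifnar1 and Ifnar2. Signals of different probe sets share the axis but are not compared with each other.

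The share without overlap depends on a property of the deposited values. Many probe sets carry exactly the same value on several arrays, and equal values across genotypes count as overlap here. Among genes with 5 distinct values, 36.4% of those tested, 32.6% did not overlap in either direction and 20.4% did so upward. Of the 10 chains, 6 had 5 distinct values: the 4 interferon receptor chains, Il6st and Il10rb. The other 4 had 2 or 3 distinct values. Among the 6 chains with 5 distinct values, 4 did not overlap.

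Interferon-gamma is the type II interferon, made mainly by NK cells, T cells and ILC1s. Ifngr1 encodes the chain that binds the ligand. It read 8.76, 9.07 and 9.07 on the wild-type arrays and 9.88 and 9.47 on the knockout arrays. All knockout values were above all wild-type values, and the groups did not overlap. The wild-type mean was 8.97 ± 0.18 (SD, n = 3). The knockout mean was 9.67 ± 0.29 (SD, n = 2), which is 1.63-fold higher. On the log2 scale the difference was 0.71 (SE 0.18, 95% interval 0.20 to 1.21, not adjusted for the number of genes), and limma's adjusted p was 0.528.

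Ifngr2 encodes the partner chain that brings JAK2 to the receptor. Its signal was 6.97, 7.58 and 7.77 in wild type and 8.30 and 8.55 in knockout. This was the widest difference among the 10 chains, although wild type replicate 1 lay well below the other wild-type arrays. The means were 7.44 ± 0.42 (SD, n = 3) and 8.43 ± 0.18 (SD, n = 2), a 1.98-fold difference. The log2 difference was 0.99 (SE 0.29, 95% interval 0.18 to 1.79), with a limma adjusted p of 0.557. Without wild type replicate 1 it was 0.75, and without knockout replicate 2 it was 0.86.

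Type I interferons, the interferon-alpha and interferon-beta proteins, bind the receptor of Ifnar1 and Ifnar2. Ifnar1, the chain associated with TYK2, read 7.77, 7.22 and 7.63 in wild type and 7.96 and 8.12 in knockout. Both knockout arrays were above every wild-type array. Its difference was 0.50 (SE 0.20, 95% interval -0.05 to 1.06, limma adjusted p 0.623). Ifnar2, the high-affinity chain associated with JAK1, read 7.67, 7.43 and 7.75 in wild type and 7.84 in both knockout arrays. The gap between the groups was small here, and the difference was 0.22 (SE 0.12, 95% interval -0.10 to 0.55, limma adjusted p 0.623). It was 0.13 without wild type replicate 2.

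The promoters of the interferon receptor genes are shown because these were the chains whose genotype groups did not overlap; that of Ifnar1 is described only. RefSeq windows (assembly GRCm38.p6) were found for 7 of the 10 genes. The files name no genome build, so the windows serve only as sequence context. Each line below gives the 250 bases before an annotated start, 5′ to 3′ on the gene's strand, for Ifngr1 at chr10:19591699-19591948 (+), Ifngr2 at chr16:91546809-91547058 (+) and Ifnar2 at chr16:91372533-91372782 (+). Capitals mark matches, on either strand, to the motifs named after the sequences.
Ifngr1: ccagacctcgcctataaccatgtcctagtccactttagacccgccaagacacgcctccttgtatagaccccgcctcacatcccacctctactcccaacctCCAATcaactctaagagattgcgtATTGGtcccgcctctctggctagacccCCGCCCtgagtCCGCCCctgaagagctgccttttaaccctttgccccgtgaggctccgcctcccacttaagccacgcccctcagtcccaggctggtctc
Ifngr2: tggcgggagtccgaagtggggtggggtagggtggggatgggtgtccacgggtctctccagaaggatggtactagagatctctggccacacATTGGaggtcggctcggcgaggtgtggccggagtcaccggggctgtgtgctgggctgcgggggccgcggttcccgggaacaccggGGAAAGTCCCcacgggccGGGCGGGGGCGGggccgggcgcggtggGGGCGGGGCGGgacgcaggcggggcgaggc
Ifnar2: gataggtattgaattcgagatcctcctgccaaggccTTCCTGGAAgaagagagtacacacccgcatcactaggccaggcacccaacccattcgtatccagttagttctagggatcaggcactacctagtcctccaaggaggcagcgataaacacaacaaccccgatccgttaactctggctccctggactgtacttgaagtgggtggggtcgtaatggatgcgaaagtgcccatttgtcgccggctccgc
The letters searched were TTCNNNGAA for the GAS element bound by STAT dimers, GAAANNGAAA for the core of the interferon-stimulated response element, the NF-kB motif, TGANTCA for AP-1, GGGCGG for the GC box, CCAAT and TATAAA. Matches of one motif may overlap each other, as GC boxes do in Ifngr2. The Ifngr1 window held 2 GC boxes and 2 CCAAT matches, in a sequence of 59.2% G and C. The Ifngr2 window, at 74% G and C, held 4 GC box matches, 1 CCAAT match and 1 NF-kB match starting 75 bases before the annotated start. The Ifnar2 window held 1 GAS match and no other, and the Ifnar1 window held 2 GC boxes. That Ifnar1 window, at chr16:91484965-91485214 (+), precedes an annotated start within the gene. It reaches past the gene's first base at 91485032, so it lies partly inside the gene. Over all 32851 windows of this length, 32.7% held a GC box, 33.8% a CCAAT match, 7.25% the NF-kB motif, 7.02% a GAS match, 2.98% the response element core, 6.75% an AP-1 match and 12.4% TATAAA. No motif was found in all 4 interferon receptor windows. A match is only a stretch of letters, and a missing match says nothing about the factor.

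IL-27, a cytokine of macrophages and dendritic cells, is read by Il27ra together with gp130. Il27ra, the ligand-specific chain, read 8.99 on all 3 wild-type arrays and on knockout replicate 1, with exactly equal deposited values, and 8.97 on knockout replicate 2. Only that array departed from the others, and by little. The difference was -0.01 with a 95% interval of -0.11 to 0.10. With a wild-type SD of 0, that interval rests on the spread that limma borrows from other genes. Its limma adjusted p was 0.966.

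Il6st encodes gp130, which is shared by the receptors of IL-6, IL-11, LIF, oncostatin M and IL-27. It read 7.18, 7.06 and 7.20 in wild type, and 7.87 and 6.93 in knockout. The knockout arrays lay on opposite sides of the wild-type arrays, replicate 1 above all 3 and replicate 2 below all 3. The difference of 0.25 (SE 0.31, limma adjusted p 0.737) is thus a mean of unlike values. It was 0.72 without knockout replicate 2 and -0.22 without knockout replicate 1.

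TGF-beta first binds TGFBR2, a kinase that is always active, which then activates TGFBR1. Tgfbr2 read 7.25, 7.14 and 7.25 in wild type and 7.29 and 7.25 in knockout. Its groups touched at an equal value, and the difference was 0.06 (SE 0.06, 95% interval -0.11 to 0.22, limma adjusted p 0.701). Tgfbr1 read 4.37 on 4 arrays with exactly equal values and 4.71 on wild type replicate 3. Its mean over all arrays, 4.44, lay just below the median gene (4.48), and its difference was -0.11 (SE 0.13, 95% interval -0.49 to 0.26, limma adjusted p 0.731).

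IL-10 binds IL10RA, the specific chain, and signals with IL10RB, which is shared with the receptors of IL-22 and the lambda interferons. Il10ra read 7.19, 6.76 and 7.19 in wild type and 7.98 and 7.19 in knockout. Knockout replicate 1 lay above every other array, while replicate 2 had exactly the value of wild type replicates 1 and 3. The difference was 0.54 (SE 0.31, 95% interval -0.33 to 1.40, limma adjusted p 0.623). It was 0.14 without knockout replicate 1 and 0.93 without knockout replicate 2.

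Il10rb read 7.70, 7.77 and 7.67 in wild type, and 7.93 and 6.52 in knockout. The wild-type arrays lay close together (SD 0.05, n = 3), whereas knockout replicate 2 was 1.19 below their mean and replicate 1 0.22 above it. The difference was -0.49 (SE 0.47, 95% interval -1.79 to 0.82, limma adjusted p 0.677). Il10rb was also the 1 chain called in any fit. Without knockout replicate 1 it had a limma adjusted p of 0.0228 at a difference of -1.19, in a fit that called 6.44% of all genes and in which the lone knockout array, the one with the high Xist signal, was given the spread of the wild-type arrays. Over all its alternatives the adjusted p ran from 0.0228 to 0.802. Without knockout replicate 2 the difference was 0.22, with a limma adjusted p of 0.247.

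**Figure D2:**
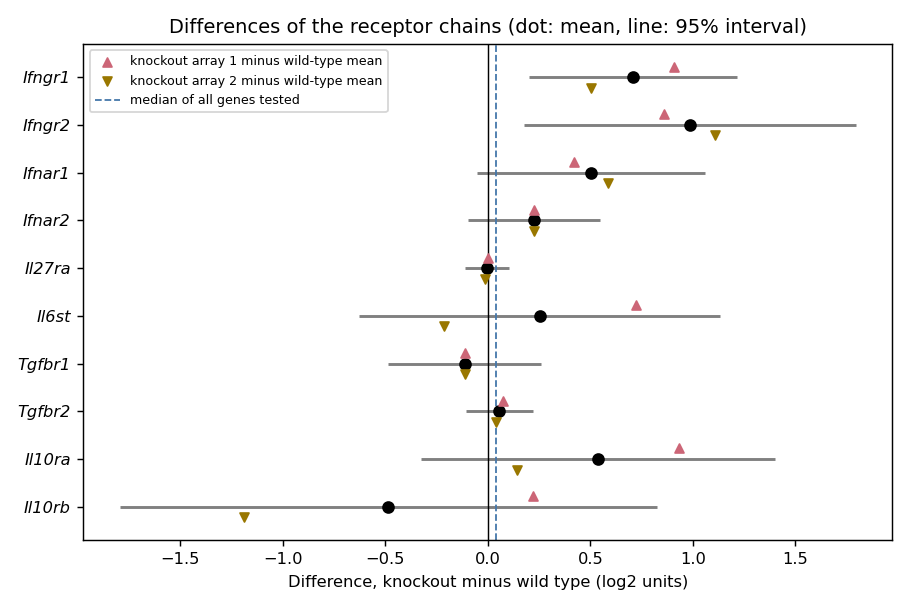
Difference of each receptor chain, knockout minus wild type in log2 units (black dot), with limma's 95% interval (grey line, not adjusted), and the difference of each single knockout array from the wild-type mean (triangles). The intervals lie above 0 for Ifngr1 and Ifngr2, and the knockout arrays fall on opposite sides of 0 for Il6st and Il10rb. The dashed line is the median of all genes tested, 0.0385.

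The chains of 1 receptor did not always show like values in the knockout arrays. For interferon-gamma and for type I interferons both chains were higher on both knockout arrays. For IL-27 the specific chain was level while gp130 went both ways, and for IL-10 Il10ra was 0.14 above the wild-type mean on knockout replicate 2 where Il10rb was 1.19 below it. In all, 6 chains had both knockout arrays above the wild-type mean, 1 (Tgfbr1) had both below, and 2 (Il6st and Il10rb) had them on opposite sides. Il27ra equalled the wild-type mean in replicate 1. Of all genes tested, 23.4% had the knockout arrays on opposite sides.

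**Figure D3:**
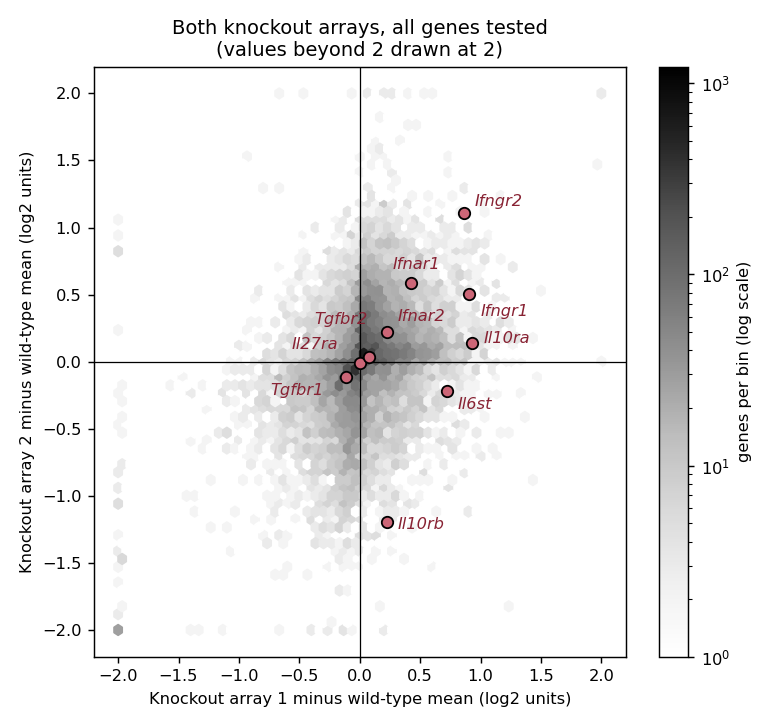
Difference of knockout replicate 1 (horizontal axis) and of knockout replicate 2 (vertical axis) from the wild-type mean, in log2 units, for all 16635 genes tested (grey, darker for more genes) and the 10 receptor chains (red dots). Ifngr1, Ifngr2, Ifnar1 and Ifnar2 lie to the upper right, while Il10rb and Il6st lie in the lower right quadrant. Both axes subtract the same wild-type mean, so points share that part.

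Of the 10 genes, 4 lie side by side on chromosome 16, where Ifnar2, Il10rb, Ifnar1 and Ifngr2 span 191 kb (chr16:91372783-91564007 in RefSeq's GRCm38.p6), with no other measured protein-coding gene between them. Their differences were 0.22, -0.49, 0.50 and 0.99 in that order. Neighbouring genes, looked at after the values of the chains were known, gave 0.41 for Paxbp1, 0.20 for 4932438H23Rik, 0.27 for Olig2 and 0.15 for Olig1 on one side. On the other side the values were 0.05 for Tmem50b, 0.62 for Dnajc28, -0.35 for Gart and -0.05 for Son. Some of these neighbour values are means of unlike knockout arrays. Dnajc28 read 5.57 and 4.33 in knockout against 4.08 to 4.71 in wild type. For Tmem50b the values were 6.20 and 5.63 against 5.71 to 5.98, and for Paxbp1 8.25 and 7.75 against 7.30 to 7.80. None was called, and of these 8 neighbours 1, Gart, did not overlap between groups, being lower in knockout. Over all genes tested, 18% did not overlap in either direction. Il10rb, between the type I interferon receptor genes, was the chain with the lowest difference. Ifngr1 lies elsewhere, at chr10:19591949-19610229.

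**Figure D4:**
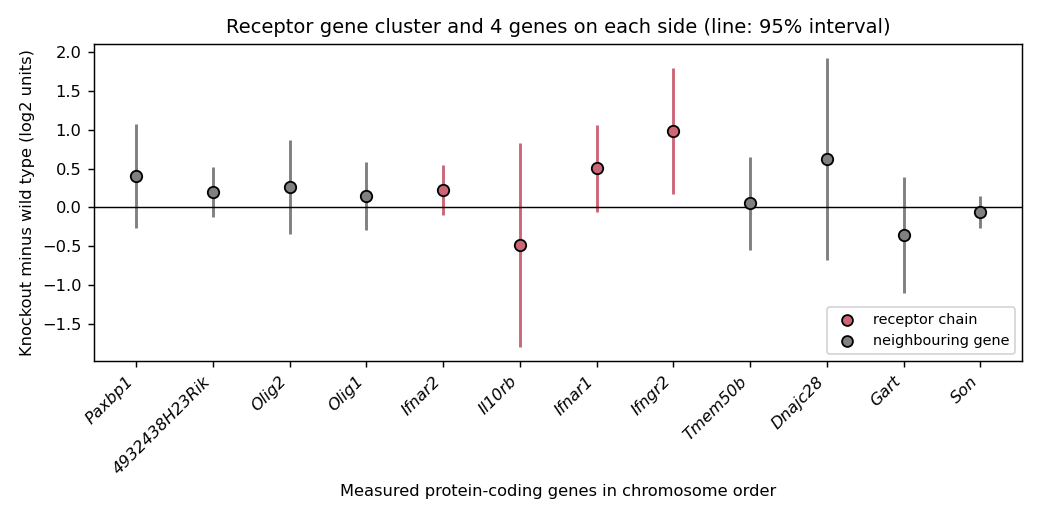
Difference, knockout minus wild type in log2 units, with limma's 95% interval (not adjusted), for the receptor genes of chromosome 16 (red) and the 4 nearest measured protein-coding genes on each side (grey), in chromosome order. Within the cluster Il10rb lies at -0.49, between Ifnar2 at 0.22 and Ifnar1 at 0.50.

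The profiles most like those of Ifngr1 and Ifngr2 were sought over the 5 arrays, by the Euclidean distance between profiles centred on their own means. Predicted genes, Riken clones, small RNAs, and olfactory and vomeronasal receptors were left out of this search and of its gene counts. For Ifngr1, whose signal ranged over 1.11 log2 units, the nearest of 6737 genes with at least 50% of that range were U2af1 at a distance of 0.14, Pcnp at 0.14 and Efcab15 at 0.16. For Ifngr2, whose range was 1.58, the nearest of 4261 were Ethe1 at 0.21, Htr1b at 0.25 and Lyve1, which is also on the endothelium marker list, at 0.25. With 5 arrays, many genes have such a profile, and none of these 6 genes was called.

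Genes downstream of the interferon receptors lay on both sides of 0. Of 12 interferon signalling genes tested, 0 were called and 0 had an unadjusted p below 0.05, with 7 above and 5 below 0 and a median difference of 0.01. Jak1, the kinase bound by Ifngr1 and Ifnar2, differed by 0.01, Jak2 by 0.03 and Tyk2 by 0.01. On knockout replicate 1 alone these were 0.04, 0.43 and 0.09, and on replicate 2 alone -0.02, -0.36 and -0.07. The 3 lowest p values belonged to Ptpn6, a phosphatase gene (-0.86, lower on both knockout arrays and -1.37 on replicate 1 alone), Usp18, a feedback inhibitor of the type I receptor (0.46, or 0.06 on knockout replicate 1 alone), and Irf1 (0.11, or 0.18 alone). Of 17 interferon-induced genes tested, 0 were called, 8 were above and 9 below 0, and the median was -0.06. Without overlap of the groups, 1 was higher and 4 were lower, where 18% of all genes did not overlap in either direction and 11.6% did so upward. Isg15 differed by 0.61 at a low signal (3.60 to 3.98 in wild type, 4.19 and 4.64 in knockout; 0.38 on replicate 1 alone). Ifi35 differed by -0.69 and the immunoproteasome gene Psmb9 by -0.44 (-0.21 alone).

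Signalling genes of the other receptors were as mixed. Of 12 genes downstream of gp130, IL-27 and IL-10, 0 were called, with 6 above and 6 below 0. Stat3 differed by -0.04 and Stat4 by -0.70, while Socs3, a feedback inhibitor of gp130, differed by 0.35. On knockout replicate 1 alone these were 0.04 for Stat3, -0.10 for Stat4 and 0.10 for Socs3. Pim1, a kinase gene, was lower on both knockout arrays (-0.41). Of 22 TGF-beta signalling genes tested, 0 were called, with 9 above and 13 below 0. Among them 1 was higher and 4 lower without overlap, where 18% of all genes did not overlap in either direction and 11.6% did so upward. Smad2, a receptor-activated SMAD gene, differed by -0.54 and Smurf2, which encodes a ubiquitin ligase for the receptor, by -0.38 (-0.11 on knockout replicate 1 alone). Pmepa1, a feedback inhibitor, differed by 0.55, upward. Of 11 TGF-beta induced genes, 0 were called, 7 were above and 4 below 0, and Cdkn1a differed by 0.43, Id1 by 0.33 (0.51 alone) and Ccn2 by 0.30 (0.03 alone).

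Transcripts of the ligands ranged from dim to bright. Of 21 ligand genes, 10 fell under the filter, among them Ifng, at 3.26 on all 5 arrays, and Il10, at 2.73 to 3.35. Tgfb1 was far above the median gene, at 7.85 to 8.77 in wild type and 9.47 and 8.64 in knockout, and its groups overlapped. The mean of all 21, dim ones included, was 4.44 and 4.33 in knockout and 4.24 to 4.32 in wild type. None of the 11 tested was called. Osm differed by -0.25 (-0.14 on knockout replicate 1 alone), Ebi3, which encodes a subunit of IL-27, by -0.76 (-0.31 alone) and Ctf1 by 0.15 (0.04 alone), and 5 were above and 5 below 0 with 1 at 0.

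Receptors related by structure were compared next. Of 8 related cytokine receptor chains tested, 0 were called and the median was 0.06: Osmr, a gp130 partner, differed by 0.33, Il12rb1 by -0.38 and Cntfr by 0.34, and on knockout replicate 1 alone by 0.15, -0.65 and 0.10. Of 11 related TGF-beta superfamily receptors, 0 were called and the median was 0.06. Bambi, a decoy receptor, differed by 0.50, Acvrl1, an endothelial type I receptor, by 0.66, and Acvr1b, an activin receptor, by -1.09. Of 13 receptors for cytokines that activate ILC2s, 0 were called and the median was -0.02. Among them 2 were higher and 3 lower without overlap, where 18% of all genes did not overlap in either direction and 11.6% did so upward. Il17rb differed by -0.23, Il9r by -0.43 (-0.28 on knockout replicate 1 alone) and Il2rb by 0.69. A test that sets the inhibitory chains against these lists was not made.

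**Figure D5:**
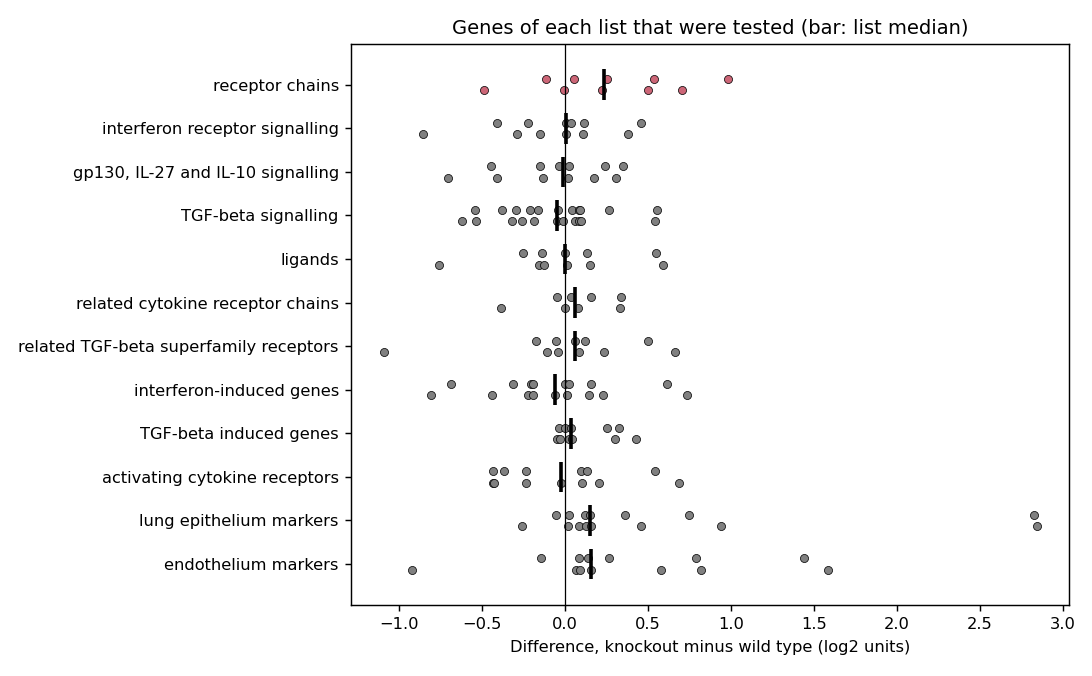
Difference, knockout minus wild type in log2 units, of every tested gene of the receptor chains (red) and of 11 other gene lists (grey), with the median of each list as a black bar. The receptor chains have a median of 0.24, the signalling and induced-gene lists lie between -0.06 and 0.04, and the epithelial and endothelial marker lists have medians of 0.15 and 0.16.

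Markers of other lung cells had higher means on both knockout arrays. Interferon receptors, gp130 and TGF-beta receptors are made by many cell types, including endothelium and epithelium. The mean of 18 lung epithelium markers was 5.09 and 4.46 in knockout and 4.14 to 4.20 in wild type. The mean of 15 endothelium markers was 5.53 and 5.62 against 5.24 to 5.34. On knockout replicate 1 the epithelial mean was carried by 3 secretory airway genes, named after their values were seen: Bpifa1 read 8.52 there, Scgb1a1 8.81 and Scgb3a2 6.21, against 2.85 to 3.22, 3.62 to 5.01 and 2.10 to 2.20 in wild type. Without those 3 the mean of the other 15 markers was 4.54 and 4.60 in knockout and 4.31 to 4.38 in wild type. Of those tested, 13 of 15 epithelial and 11 of 13 endothelial markers were above 0 in difference, where 57.1% of all genes were, and 0 were called. Without overlap of the groups, 5 epithelial markers were higher and 0 lower, and 6 endothelial markers were higher and 2 lower. Over all genes tested, 18% did not overlap in either direction and 11.6% did so upward. The epithelial markers with the lowest p were Epcam, Sftpa1 and Sftpc. Epcam, the defining marker, read 4.51 and 4.99 in knockout and 3.88 to 4.13 in wild type, Sftpc differed by 0.94 and Sftpa1 by 0.36. Cdh1 (-0.26, or -0.17 on knockout replicate 1 alone) and Krt18 (-0.05, or -0.24 alone) were below 0, and their groups overlapped. Of the endothelial genes, Cldn5 differed by 1.59, Cdh5 by 1.44 and Epas1 by 0.79, while Pecam1, at 6.48 and 7.22 against 6.57 to 6.86, overlapped. Calcrl and Kdr, also endothelial, were lower on both knockout arrays without overlap, by -0.92 (-0.27 on knockout replicate 1 alone) and -0.15. Calcrl read 7.03 on knockout replicate 1, just under the lowest wild-type array at 7.05. The part of these cells in the values of the receptor chains was not tested.

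Markers of further cell types were also summed. The mean was higher on both knockout arrays for fibroblast markers (4.38 and 4.41 against 4.20 to 4.34). The same held for mast cell and basophil markers (4.44 on both against 4.10 to 4.32). Both means include dim markers. Of those on the mast cell list, Fcer1a read 2.61 to 3.06 in wild type and 4.03 and 3.36 in knockout. Mcpt4 and Tpsb2, also dim, overlapped between genotypes. The mean was lower for T cell markers (5.06 on both against 5.08 to 5.12). Most tested T cell markers, 5 of 8, were nevertheless above 0 in difference, with a median of 0.04. Above 0 were also 4 of 6 fibroblast markers and 2 of 4 mast cell and basophil markers, where 57.1% of all genes tested were. Among their genes, Col1a2 differed by 0.36 (0.17 on knockout replicate 1 alone), Mgp by 0.58 (0.29 alone) and Col3a1 by -0.17. Cpa3 differed by 0.41 (0.14 alone), Mcpt8 by -0.11 and Ms4a2 by -0.01, and Cd3e by -0.47, Cd8a by 0.48 and Cd3d by -0.44 (-0.12 alone). B cell, macrophage and dendritic cell, NK cell and ILC1, and neutrophil marker means overlapped between genotypes. Their defining genes were dim or near the median gene: Cd79a read 3.51 to 4.29, Csf1r 3.26 to 3.72, Ncr1 3.99 to 4.23 and S100a8 2.07 to 3.82 over the 5 arrays. Wild type replicate 2 had the highest macrophage and dendritic cell mean, 4.09. The other wild-type arrays read 3.71 and 3.66 there, and the knockout arrays 3.92 and 3.91. It also had the highest neutrophil mean, 4.24, against 3.61 and 3.56 in wild type and 4.14 and 3.79 in knockout. None of these markers was called.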

How the data were processed

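Total RNA of the isolated ILC2s went through Trizol extraction and biotin labelling before it was hybridised, per the labels' protocols. The authors deposited log2 probe-set signals for 5 Affymetrix arrays. Expression Console and RMA are the tools named in the submitters' processing notes, and their versions and settings are not given in the sources used here. Precision is limited by how few arrays there are. Of 41345 probe sets, 23521 had 1 gene symbol. Of these, 23328 were matched by gene identifier to RefSeq's GRCm38.p6 table, whose symbol was then used. A gene with several probe sets is represented by the one with the highest mean, and each receptor chain has 1. After removal of the dimmest 25% of genes, limma 3.58.1 (R 4.3.3) compared the genotypes without a block, adjusted over 16635 genes. The fit was tested on simulated data with the spread of each gene in these arrays. Of 50 genes changed by 1 log2 unit, 38% were called in the right direction. At 2, 3 and 4 log2 units this was 54%, 72% and 84%, and 6 of 16435 unchanged genes were called. Intervals are at the 95% level.

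The receptor chains and all gene lists were chosen with earlier results of these data known. Named were all chains, the sex check genes, up to 3 genes with the lowest p per list (for cell markers only where the list mean did not overlap), the defining markers, and the 3 nearest profiles of the 2 chains with the lowest p. Gata3, Il7r, Jak1, Jak2, Tyk2, Stat3, Ifng, Il10, Il33, Tgfb1, Icos, Ptprc, Klrg1, Cdh1, Krt18, Calcrl, Kdr, the secretory genes and the chromosome 16 neighbours were named outside that rule, as examples. Of the listed genes, 10 have no probe set with 1 symbol in the annotation used here. Alternatives covered other filters on dim genes, averaged probe sets, quantile normalization, median centring, a trended and robust variance, array weights, a block for the replicate number, genes with at least 4 distinct values, and each array left out in turn.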

Additional observations from a re-analysis of the deposited data

How the results depend on the processing

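With limma, 0 of the 10 receptor chains and 0 genes over all were called under the 9 alternatives that kept all 5 arrays. The block for the replicate number is among the 9, but there wild type replicate 3 stands alone and adds nothing to the difference. Leaving out 1 array gave 0 to 1072 genes called and 0 to 1 chains, and the number of chains without overlap ran from 4 to 8. Without knockout replicate 1, 1072 genes and 1 chain (Il10rb) were called and 7 chains did not overlap, where 54% of all genes did not. Without knockout replicate 2, 389 genes and 0 chains were called and 8 chains did not overlap, against 47.8% of genes. A single array overlaps less often by construction. Over the 14 alternatives Ifngr1, Ifngr2, Ifnar1 and Ifnar2 differed by 0.50 to 0.91, 0.75 to 1.15, 0.34 to 0.62 and 0.13 to 0.29. Their sign could not turn when an array was left out or the variance model changed. With 1 array left out, Il6st ran from -0.22 to 0.72 and Il10rb from -1.19 to 0.22: the sign turned for Il6st without knockout replicate 1 and for Il10rb without knockout replicate 2. Quantile normalization put Il10ra among the chains without overlap as well, while the share over all genes was then 30.7%. With fewer genes tested, 4 chains had under 4 distinct values and Tgfbr1 lay under the 50% filter, so these have no value there.

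Replicate numbers are not said to pair samples. Deviations of same-numbered arrays correlated at -0.05 for replicate 1 and 0.14 for replicate 2. The unmatched pair of wild type replicate 3 and knockout replicate 1 gave 0.19. With 2 knockout arrays, the deviation of each is the negative of the other's. These correlations therefore cannot tell whether samples were paired. With the replicate number as a block, 0 genes and 0 chains were called, and Ifngr1 and Ifngr2 differed by 0.76 and 1.15. Wild type replicate 3 is alone in its block, so these differences are those without that array.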
